A study of Caenorhabditis elegans with 12 samples.

Results

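This account covers the genes of *Caenorhabditis elegans* that make oocytes, germ granules, meiotic chromosomes and the eggshell. A list of 41 named genes was matched to the rows of the deposited count table through the WBcel235 annotation, and the rows with any count were kept. That left 39 of the 27928 table rows: 9 oocyte RNA-binding proteins, 5 germline RNA regulators, 7 germ granule genes, 11 meiotic chromosome genes, 3 genes of the cell cycle and egg activation, and 4 eggshell genes. The 2 other genes, puf-3 and nos-2, were listed at 0 in all 12 libraries and gave no measurement.

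The libraries were made from total RNA of whole N2 animals, the wild-type strain, grown at 20 °C and treated for 44 h. There were 6 pools on vitamin D and 6 on the vehicle, DMSO. The labels give the dose as 100 µM in the series text and 100 mM in the protocol, the pool as 50 or 40 worms, and the start of treatment either as larval stage L4 or as an age of 1 day. Each library is thus an average over many animals and over all their tissues. Vitamin D libraries held 31383203 to 38720736 counts and vehicle libraries 30203731 to 35230983. The series text calls the pools independent biological replicates.

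In the hermaphrodite gonad, germ cells divide at the distal end, enter meiosis, and grow into oocytes at the proximal end. Stem cells use translational regulators such as FBF, and early meiotic cells use others such as GLD-1. The meiotic cells build the synaptonemal complex that holds paired chromosomes together. Growing oocytes store messenger RNAs for the early embryo together with the proteins that keep them silent. Germ granules, also called P granules, are condensates of RNA and protein at the germline nuclei. The eggshell is laid down around the oocyte at fertilization, from parts made beforehand.

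No member passed the threshold between vitamin D and vehicle pools, but the pools of each treatment differed widely in the oocyte RNA-binding and eggshell members. Of the 39 members, 0 had an adjusted p under 0.05 in edgeR's quasi-likelihood test (Benjamini-Hochberg over 13460 tested genes), where 3.66% of all tested genes did (1.75% higher and 1.9% lower). DESeq2's test also called 0 members, where it called 1167 of the 13460 tested genes, but it gave no adjusted p for meg-2. In edgeR, 0 members had an unadjusted p under 0.05, against 16.7% of tested genes. In 0 of the 39 did the 6 vitamin D libraries lie wholly above or below the 6 vehicle libraries, which 3.9% of tested genes did. The median log2 fold change, vitamin D over vehicle, was -0.08 over the members and -0.003 over all tested genes, with 10 members positive and 29 negative. These p-values weigh the difference between treatments against the spread between pools of a treatment.

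Vitamin D library 5 stood apart from the other vitamin D libraries, and vehicle libraries 2 and 3 from the other vehicle libraries. The highest level of all 12 libraries was in vitamin D library 5 for 31 of the 39 members, against 16.6% of all tested genes. Vehicle library 2 or 3 held the lowest level for 28 members, against 24.7% of tested genes. Across the members, the median log2 deviation from each gene's mean over the libraries was 0.50 in vitamin D library 5 and -0.21 to -0.15 in the other vitamin D libraries. The same median was -0.32 and -0.41 in vehicle libraries 2 and 3 and 0.09 to 0.38 in the other vehicle libraries. The 5 other vitamin D libraries therefore lay between the low and the high vehicle libraries. In whole worms, fewer cells of a type and less RNA per cell cannot be told apart.

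**Figure D1:**
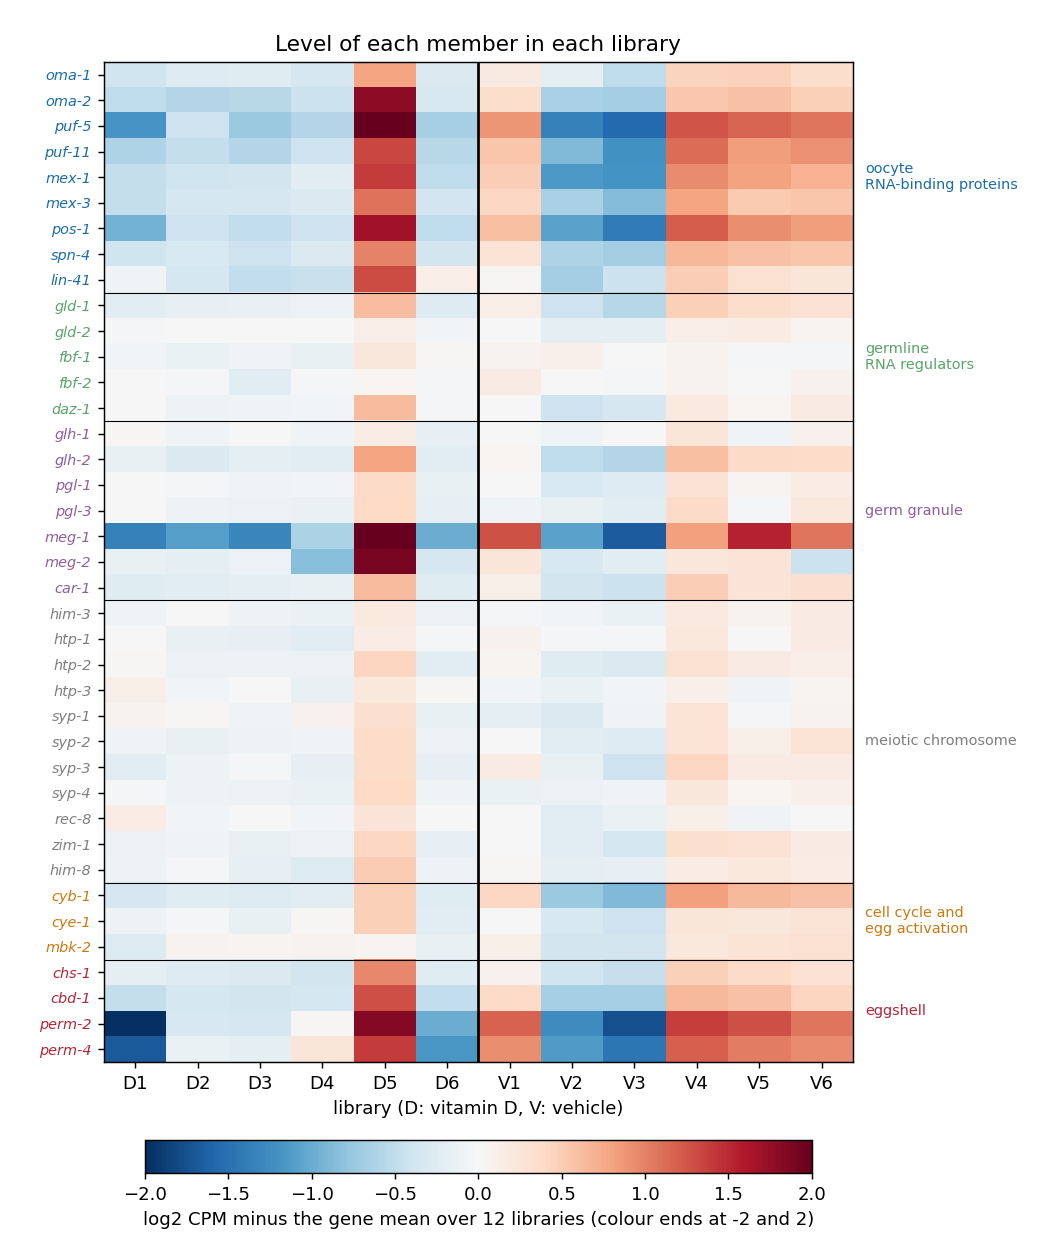
Log2 CPM of each of the 39 members (rows, coloured by role) in each vitamin D library (left of the line) and vehicle library (right), minus the gene's mean over the 12 libraries. Vitamin D library 5 is high and vehicle libraries 2 and 3 are low in the oocyte and eggshell rows, while the meiotic chromosome rows are pale, with at most a 1.77-fold range.

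Among the members, the size of this spread differed between roles. The highest library exceeded the lowest by 2.47-fold to 12.9-fold in the 9 oocyte RNA-binding genes and by 2.68-fold to 15.2-fold in the 4 eggshell genes. In the 11 meiotic chromosome genes it did so by 1.27-fold to 1.77-fold. More than a 2-fold range was found in 20 of the 39 members (51.3%), among them 0 meiotic chromosome genes, against 48.5% of all tested genes, so the members as a whole were near the background.

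Among the oocyte RNA-binding genes, puf-5, a Pumilio-family repressor of late oogenesis (II, 8575541 to 8577787 in WBcel235), varied most. Its level in vitamin D libraries 1 to 6 was 18.9, 31.98, 25.7, 28.4, 188 and 26.9 CPM. In vehicle libraries 1 to 6 it was 79.3, 16.8, 14.6, 102, 95.6 and 89.5 CPM. So 5 vitamin D libraries and vehicle libraries 2 and 3 were low, the 4 other vehicle libraries were higher, and vitamin D library 5 was the highest of all. The means were 53.3 ± 66.1 CPM in vitamin D and 66.3 ± 39.9 CPM in vehicle pools (SD, n = 6 each). The log2 fold change was -0.31, with a 95% interval of -1.79 to 1.16 (edgeR adjusted p = 0.855).

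The related gene puf-11 had the largest difference of this role, with a log2 fold change of -0.46 (95% interval -1.49 to 0.56, edgeR adjusted p = 0.674). Vitamin D libraries 1 to 6 had 29.2, 32.2, 29.9, 33.8, 113 and 30.6 CPM of puf-11, with a median of 31.4. Vehicle libraries 1 to 6 had 66.0, 24.4, 19.5, 97.1, 79.8 and 84.3 CPM, with a median of 72.9. The ranges overlapped, but the vitamin D libraries other than 5 lay between vehicle libraries 2 and 3 and the other vehicle libraries. PUF-11 and PUF-3 are closely similar proteins, so the listing of puf-3 at 0 leaves the level of puf-11 uncertain, since shared reads may have been dropped or assigned to either gene.

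The embryonic regulator spn-4, an RNA-recognition-motif protein, had the highest level per exon length of this role, at 69.6 ± 35.1 CPM per kb in vitamin D and 82.9 ± 30.8 CPM per kb in vehicle pools (SD, n = 6 each). Its levels were 81.9, 87.0, 80.9, 87.7, 215 and 83.5 CPM in vitamin D libraries 1 to 6, and 130.4, 70.1, 66.2, 171, 161 and 159 CPM in vehicle libraries 1 to 6. Vitamin D libraries other than 5 differed little among themselves and lay between vehicle libraries 2 and 3 and the rest of the vehicle libraries. Its log2 fold change was -0.25 (SE 0.32). The zinc-finger gene pos-1, needed for cell fates in the early embryo, ran from 21.3 to 130.5 CPM in vitamin D and from 15.4 to 94.3 CPM in vehicle libraries. The highest value was again that of vitamin D library 5, as in all 9 members of this role. There mex-1, a further zinc-finger regulator, had 3.47 times the mean of the other vitamin D libraries, and mex-3, a KH-domain repressor, 2.72 times.

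Both oma genes encode zinc-finger proteins that are needed, redundantly, for oocyte maturation, and they did not keep a constant ratio. The CPM of oma-2 divided by that of oma-1 was 0.88 in vitamin D library 5 and 0.36 to 0.43 in the other vitamin D libraries, with 0.32 to 0.50 in vehicle libraries. Thus oma-2 was 4.81 times and oma-1 2.14 times the mean of the other vitamin D libraries in library 5. Their log2 fold changes were 0.04 (SE 0.46) for oma-2 and -0.22 (SE 0.23) for oma-1.

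The TRIM-NHL gene lin-41, which keeps oocytes from maturing early, differed from its group within the vitamin D pools. It had 42.02, 34.7, 31.7, 32.8, 110 and 49.1 CPM in vitamin D libraries 1 to 6. In vehicle libraries 1 to 6 it had 45.1, 27.9, 32.9, 62.3, 54.8 and 52.9 CPM. Apart from library 5, vitamin D libraries 1 and 6 were thus its highest, and libraries 2, 3 and 4 its lowest. Its log2 fold change was 0.12 (SE 0.32).

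**Figure D2:**
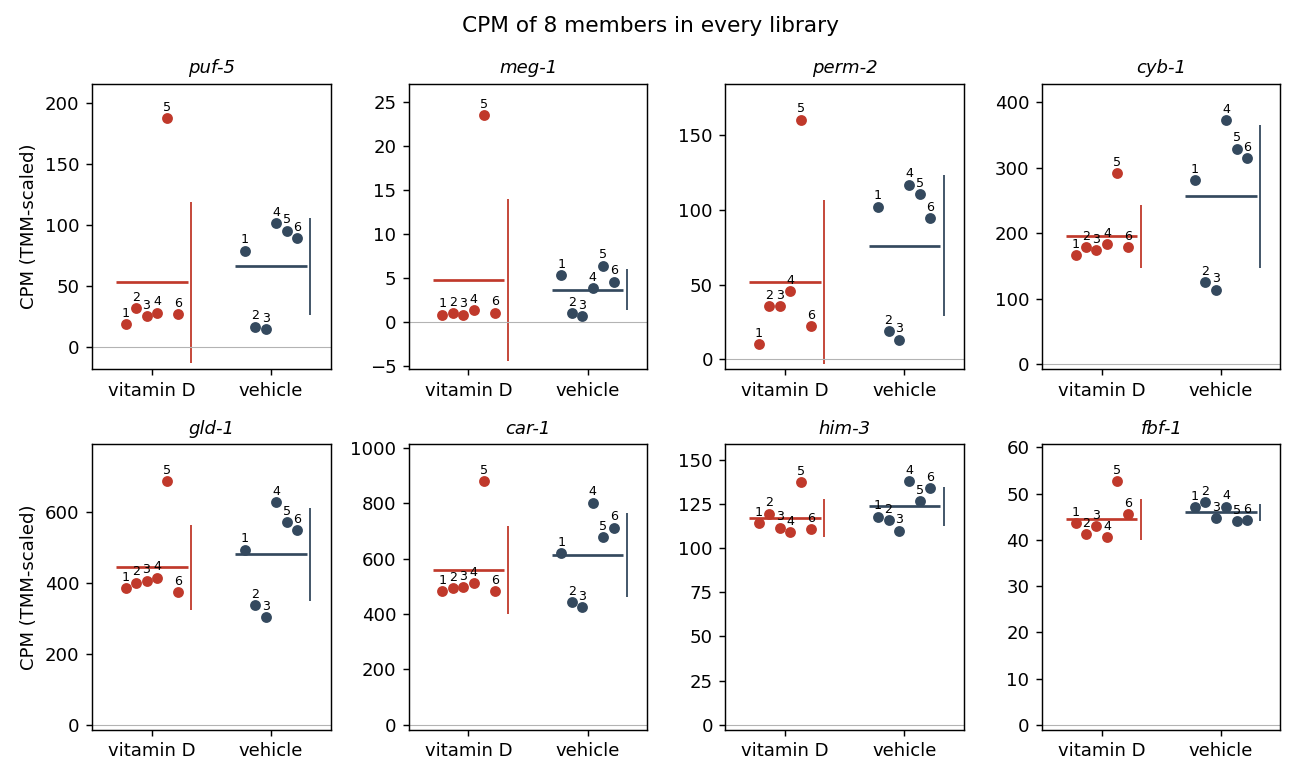
CPM, scaled by TMM factors, of 8 members in vitamin D (left) and vehicle (right) libraries, with library numbers beside the points, a line at the mean and a bar of ± 1 SD (n = 6 each). The puf-5, meg-1 and perm-2 panels show 1 high vitamin D library and 2 low vehicle libraries, while him-3 lies between 109 and 138 CPM and fbf-1 between 40.6 and 52.7 CPM throughout.

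The eggshell members spread as widely as the oocyte RNA-binding members. perm-2, a gene of the permeability barrier of the egg, had 10.5, 35.8, 35.6, 45.6, 160.1 and 22.5 CPM in vitamin D libraries 1 to 6. Its vehicle values were 102, 18.8, 13.2, 117, 110.2 and 94.6 CPM. Here vitamin D library 1 was the lowest of all 12, and vitamin D libraries 1 and 6 lay below libraries 2 to 4. The log2 fold change was -0.55, the largest in size of all members, with a 95% interval of -2.04 to 0.93 (edgeR adjusted p = 0.729).

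perm-4, which lies near perm-2 on chromosome IV (1121494 to 1125107, against 1126790 to 1128865) on the opposite strand, had the same order of vitamin D libraries. It had 34.5, 101, 96.4, 130.1, 289.6 and 48.8 CPM in vitamin D libraries 1 to 6, and 209, 49.9, 40.3, 253, 224 and 212 CPM in vehicle libraries 1 to 6. Per exon length it was the highest eggshell gene, with 105 ± 83.0 CPM per kb in vitamin D and 149 ± 85.0 CPM per kb in vehicle pools (SD, n = 6 each). Its log2 fold change was -0.50 (SE 0.57). cbd-1, a chitin-binding protein of the outer eggshell, reached 477 CPM in vitamin D library 5, with 138 to 153 CPM in the other vitamin D libraries and 123 to 306 CPM in vehicle libraries. The chitin synthase gene chs-1 had a narrower range of 2.68-fold. In vitamin D library 1, the lowest library of both perm genes, cbd-1 was at 139.8 and chs-1 at 46.1 CPM, within the range of the 4 other vitamin D libraries besides library 5 for cbd-1 and above them for chs-1.

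The germ granule genes split by level and by spread. car-1, an Sm-like protein of germline RNA granules, had the highest level per exon length of all members, at 393 ± 111 CPM per kb in vitamin D and 432 ± 106 CPM per kb in vehicle pools (SD, n = 6 each). Its values were 483, 494, 498, 512, 881 and 483 CPM in vitamin D libraries 1 to 6 and 621, 444, 425, 803, 678 and 712 CPM in vehicle libraries 1 to 6, which overlap. The log2 fold change was -0.14 (SE 0.20). The P granule genes glh-1, pgl-1 and pgl-3 were steadier. The Vasa-like helicase gene glh-1 had 684 ± 50.6 CPM in vitamin D and 714 ± 63.2 CPM in vehicle pools (SD, n = 6 each), a log2 fold change of -0.06 with a 95% interval of -0.21 to 0.09. The scaffold genes pgl-1 and pgl-3 had log2 fold changes of 0.02 (SE 0.12) and -0.04 (SE 0.12).

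The paralog glh-2 spread more than glh-1, with 63.1 to 132 CPM in vitamin D and 51.1 to 116 CPM in vehicle libraries. The CPM of glh-2 divided by that of glh-1 was 0.17 in vitamin D library 5 and 0.096 to 0.11 in the other vitamin D libraries, and 0.073 to 0.15 in vehicle libraries. By contrast, pgl-3 divided by pgl-1 stayed between 0.33 and 0.36 in vitamin D and between 0.33 and 0.39 in vehicle libraries.

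The widest spread of all members was that of meg-1, which encodes a P granule protein of the early embryo, on the X chromosome (13927036 to 13929634). It was also 1 of the 2 members with the lowest levels. Vitamin D libraries 1 to 6 had 32, 38, 35, 45, 952 and 42 counts of meg-1. Vehicle libraries 1 to 6 had 184, 31, 23, 126, 203 and 144 counts. In CPM, these were 0.87, 1.04, 0.89, 1.42, 23.6 and 1.11 in vitamin D libraries, and 5.38, 1.05, 0.70, 3.93, 6.44 and 4.64 in vehicle libraries. Vehicle libraries 2 and 3 were thus as low as the vitamin D libraries other than 5. The log2 fold change of 0.39 had a 95% interval of -1.67 to 2.44 (edgeR adjusted p = 0.872), and without vitamin D library 5 it was -1.80 (edgeR adjusted p = 0.0845). Its neighbour and paralog meg-2 had 196 counts in vitamin D library 5 and 23 to 47 in the others of that treatment, with 30 to 53 in vehicle libraries. For meg-2, vehicle libraries 2 and 3 did not stand below the other vehicle libraries.

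Among the germline RNA regulators, gld-1, a translational repressor of early meiotic cells, had 384, 399.8, 406, 414, 686 and 374 CPM in vitamin D libraries 1 to 6. In vehicle libraries 1 to 6 it had 493, 337, 303, 626, 571 and 547 CPM. It followed the oocyte genes with a smaller amplitude, 2.26-fold from lowest to highest. It also had the highest level per exon length of this role, 200.1 ± 53.9 CPM per kb in vitamin D and 216 ± 59.0 CPM per kb in vehicle pools (SD, n = 6 each), and a log2 fold change of -0.11 (95% interval -0.56 to 0.34, edgeR adjusted p = 0.828). daz-1, an RNA-binding protein needed for oogenesis, had the largest difference of the role, 0.12 (SE 0.15), with 138, 129, 131, 132, 213 and 135 CPM in vitamin D libraries 1 to 6 and 138, 104, 109, 158, 143 and 155 CPM in vehicle libraries 1 to 6. These ranges overlapped, and vitamin D library 5 was again the highest.

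The stem cell and poly(A) regulators were nearly flat. fbf-1 and fbf-2, Pumilio-family proteins that maintain germline stem cells, had 44.5 ± 4.43 and 46.2 ± 2.55 CPM in vitamin D pools, and 45.9 ± 1.77 and 49.2 ± 2.56 CPM in vehicle pools (SD, n = 6 each). The cytoplasmic poly(A) polymerase gene gld-2 ran from 181 to 206 CPM in vitamin D and from 166 to 208 CPM in vehicle libraries, the narrowest range of all members (1.26-fold). For these 3 genes the 95% intervals of the log2 fold change reached at most -0.21 on the lower side and 0.15 on the upper side. The fbf genes are close paralogs that lie near each other on chromosome II, so reads shared between them make the level of each uncertain.

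The meiotic chromosome genes lay close together in both treatments. him-3, a HORMA-domain protein of the chromosome axis and the highest of the role per exon length, had 100.1 ± 9.05 CPM per kb in vitamin D and 106 ± 9.42 CPM per kb in vehicle pools (SD, n = 6 each). It had 114, 119.5, 112, 109, 137 and 111 CPM in vitamin D libraries 1 to 6, and 118, 116, 109.9, 138, 127 and 134 CPM in vehicle libraries 1 to 6, nearly the same range. The log2 fold change was -0.08 (95% interval -0.24 to 0.08). htp-1, another HORMA-domain gene, had the largest difference of the role and the smallest p of all members. Its vitamin D values were 101, 91.7, 90.7, 87.5, 113 and 100.4 CPM in libraries 1 to 6, and its vehicle values 108, 99.6, 100.3, 118, 101 and 114 CPM. The log2 fold change was -0.14 (95% interval -0.29 to 0.02, edgeR adjusted p = 0.374). Vitamin D libraries 1, 5 and 6 lay within the vehicle range, and libraries 2, 3 and 4 below it.

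htp-1 and its close paralog htp-2, whose level had a log2 fold change of -0.04 (SE 0.13), may share reads. htp-3, also a HORMA-domain gene, had 0.06 (SE 0.06), and rec-8, the meiotic cohesin subunit, 0.10 (SE 0.07). The synaptonemal complex genes syp-1, syp-2, syp-3 and syp-4 had log2 fold changes of 0.08, -0.06, -0.12 and -0.01. Of these, syp-3 spread most, with 16.6, 18.05, 18.9, 17.4, 25.204 and 17.4 CPM in vitamin D libraries 1 to 6 and 21.8, 17.5, 14.6, 25.9, 21.7 and 21.8 CPM in vehicle libraries 1 to 6, which overlap. The pairing-centre zinc-finger genes zim-1 and him-8 had -0.07 (SE 0.14) and -0.05 (SE 0.13). Exons of other genes covered 16.9% of the exon length of syp-1, 11.02% of zim-1 and 6.53% of syp-3, with the use of strand in counting not given in the sources used here.

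Of the cell cycle genes, cyb-1, a mitotic B-type cyclin stored in oocytes, had the largest difference and the widest spread of its role. It had 166, 178, 173, 183, 292 and 179 CPM in vitamin D libraries 1 to 6. In vehicle libraries 1 to 6 it had 280.6, 125, 114, 373, 329 and 315 CPM. Unlike most members, it was highest in a vehicle library, and vitamin D library 5 lay within the range of vehicle libraries 1, 4, 5 and 6. Means were 115 ± 28.2 CPM per kb in vitamin D and 151 ± 64.9 CPM per kb in vehicle pools (SD, n = 6 each), with a log2 fold change of -0.39 (95% interval -1.03 to 0.24, edgeR adjusted p = 0.557).

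The E-type cyclin gene cye-1 moved less, so the CPM of cyb-1 divided by that of cye-1 was 2.07 to 2.43 in vitamin D libraries. In vehicle libraries it was 1.75 to 1.82 in libraries 2 and 3 and 3.01 to 3.66 in the others. This ratio thus placed vitamin D library 5 with the other vitamin D libraries, unlike the oma and glh ratios. mbk-2, a kinase of the oocyte-to-embryo transition, had 206 to 262 CPM in vitamin D and 192 to 307 CPM in vehicle libraries. In vitamin D library 5 it was 1.07 times the mean of the other vitamin D libraries, against 1.66 times for cyb-1 and 1.49 times for cye-1.

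**Figure D3:**
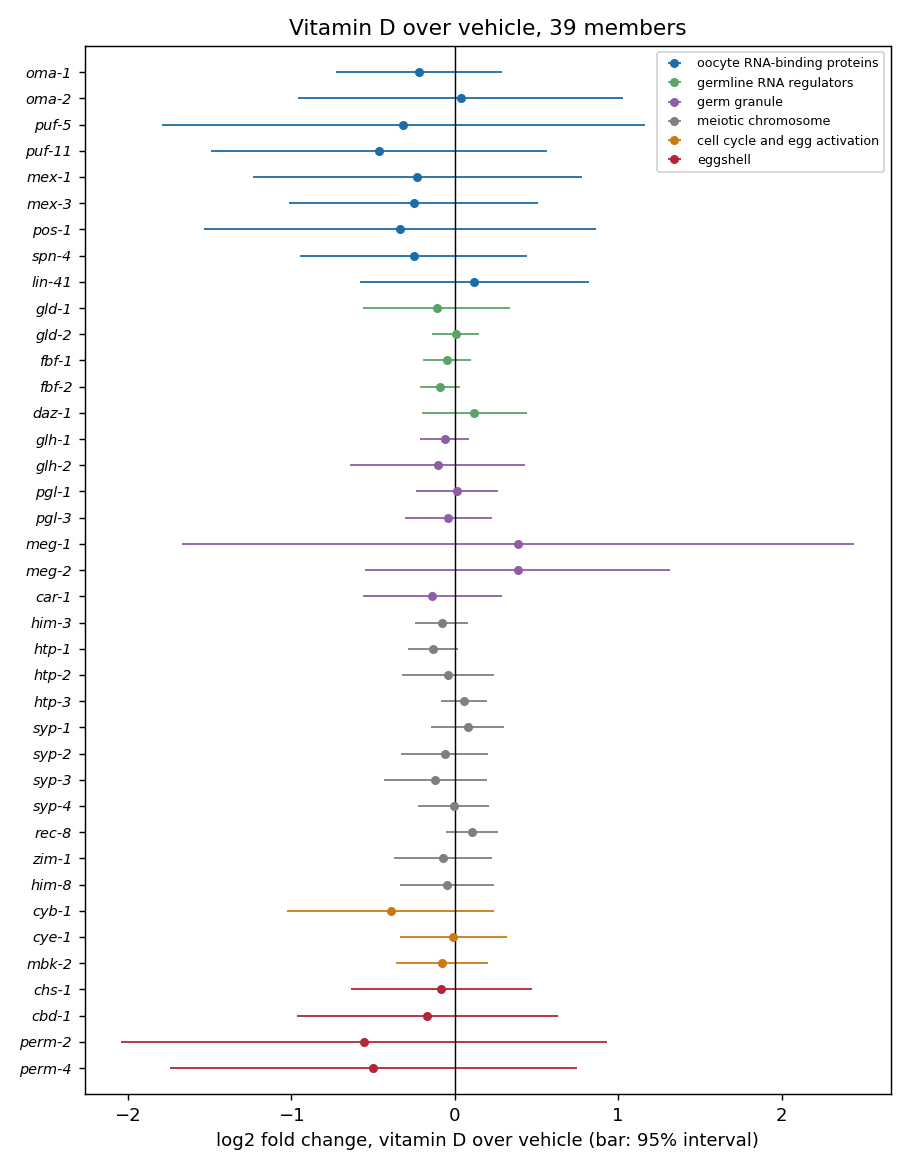
Log2 fold change of vitamin D over vehicle for each of the 39 members, with 95% intervals from the edgeR fit, coloured by role. Every interval crosses 0, and those of oocyte and eggshell genes, such as -2.04 to 0.93 for perm-2, are wider than those of meiotic chromosome genes, such as -0.24 to 0.08 for him-3.

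The treatment differences depended on the libraries that stood apart. With all libraries, the median log2 fold change was -0.25 for the oocyte RNA-binding genes, -0.33 for the eggshell genes and -0.05 for the meiotic chromosome genes. Without vitamin D library 5 these were -0.68, -0.82 and -0.14, and 0 members passed the threshold, against 4.63% of tested genes. Without vehicle libraries 2 and 3, a choice made after seeing the data, they were -0.57, -0.70 and -0.13. There 2 of 39 members were past the threshold with a negative value, cyb-1 (-0.73) and mbk-2 (-0.24), where 28.6% of tested genes passed and 13.8% were lower. Without vitamin D library 5 as well, 30 members were lower, where 40.9% of tested genes passed and 22% were lower. The left-out libraries were picked by their levels of these very genes, so the 2 and the 30 calls follow from the choice and support nothing.

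Sperm transcripts varied along with the oocyte transcripts, but not in the same order. The 53 tested sperm markers had a median log2 deviation of 0.62 in vitamin D library 5 and -0.46 to -0.06 in the other vitamin D libraries. In vehicle libraries they had -1.56 and -1.81 in libraries 2 and 3 and 0.78 to 1.28 in the others. The oocyte RNA-binding median of vitamin D library 5 was thus above all vehicle libraries (1.33, against at most 0.78), while its sperm median was below those of vehicle libraries 1, 4, 5 and 6. Summed sperm marker levels ran from 1947 to 4206 CPM in vitamin D and from 872 to 6380 CPM in vehicle libraries, with 6 of 59 markers, spe-6 and spe-41 among them, listed at 0. With the sperm marker median as a covariate, the median log2 fold change of the oocyte RNA-binding genes was 0.0089 and that of the eggshell genes -0.05, and 0 members passed, against 12.2% of tested genes. Over all tested genes the median in that fit was 0.036. The covariate comes from the same libraries and was itself low in vehicle libraries 2 and 3, so this fit cannot give the part of sperm content. That part in the members' differences was not tested.

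Markers of other tissues were read in the same libraries. Intestinal markers, which include the yolk genes, summed to 12514 CPM in vitamin D library 5, to 4886 to 5806 CPM in the other vitamin D libraries, and to 5476 to 7480 CPM in vehicle libraries, with act-5 of 14 markers listed at 0. By the median over the 13 tested intestinal markers, library 5 was not the highest of the 12: the log2 deviation was 0.26 there, -0.64 to -0.18 in the other vitamin D libraries, and 0.43, 0.47 and 0.39 in vehicle libraries 1, 4 and 5. It held the highest level for 6 of the 13. Embryo markers summed to 3.03 to 4.81 CPM in vitamin D and 2.81 to 4.58 CPM in vehicle libraries, with 5 of 15 listed at 0, among them tbx-37, tbx-38 and ceh-51. Just 2 of the 15 passed the filter and were tested. A listing at 0 may be a missing measurement, since no row of chromosome III held a count. That gap does not cover every 0, as puf-3 on chromosome IV and nos-2 on chromosome II were also listed at 0. Markers of the somatic gonad summed to 161 to 189.8 CPM in vitamin D and 167 to 182 CPM in vehicle libraries, with fkh-6 of 6 listed at 0. Hypodermal markers summed to 3158 to 4951 CPM in vitamin D and 3477 to 5873 CPM in vehicle libraries, with bli-1 and bli-2 of 10 listed at 0. The lowest hypodermal sum was that of vitamin D library 5, but its median log2 deviation over the 8 tested markers, -0.05, was above the -0.25 to -0.20 of vehicle libraries 4, 5 and 6. In edgeR 0 markers of these 5 lists passed, against 3.66% of all tested genes. An unadjusted p under 0.05 was found for 3, where 16.7% of all tested genes had one. DESeq2 called 0, against 1167 of the 13460 tested genes. The part of other tissues in the members' values was not tested.

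**Figure D4:**
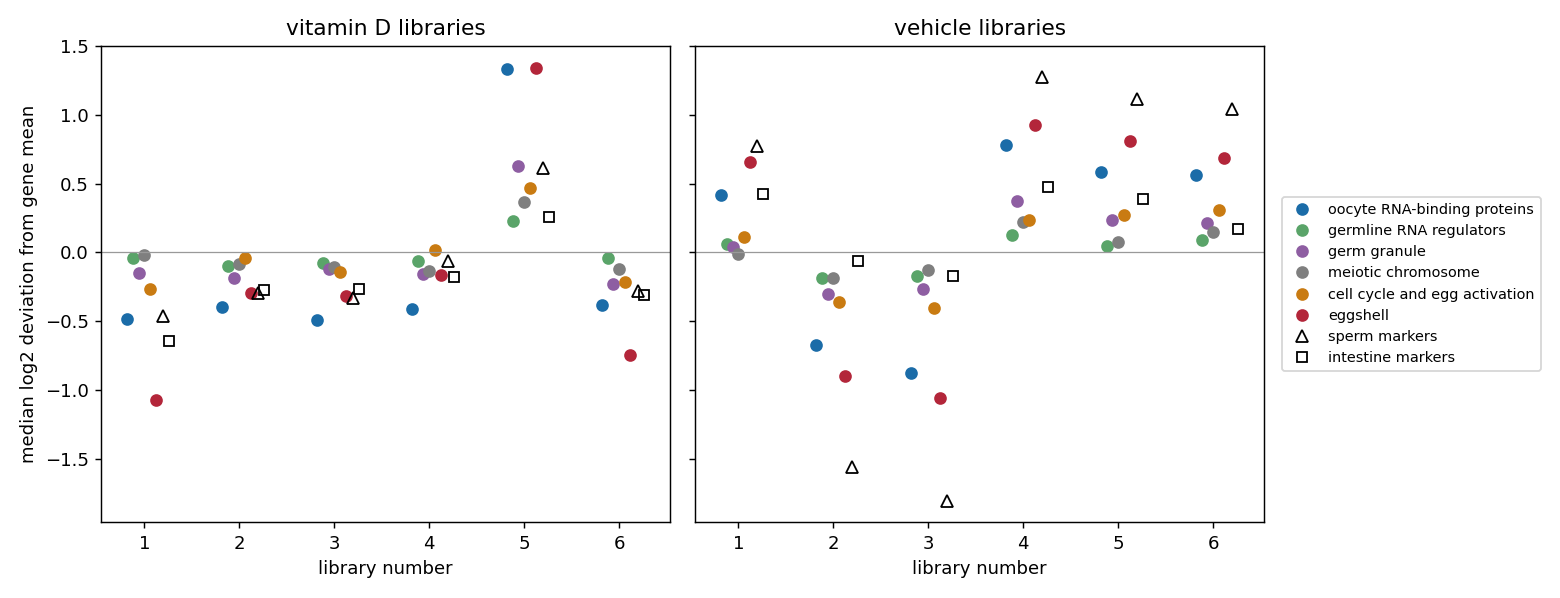
Median log2 deviation from the gene means for each role (filled points), sperm markers (triangles) and intestine markers (squares) in each vitamin D library (left) and vehicle library (right). The oocyte RNA-binding median is 1.33 in vitamin D library 5, above its sperm median of 0.62, whereas in vehicle libraries 1, 4, 5 and 6 the sperm medians of 0.78 to 1.28 are the higher ones.

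Other genes of the same processes, from lists drawn up by function with earlier results of these data known, also had 0 calls. Of 116 such genes with a row, 88 were tested, and 27 were at 0, all on chromosome III, where no row held a count. Of the 88, 0 passed in edgeR's quasi-likelihood test, against 3.66% of all tested genes. DESeq2 called 0, where it called 1167 of the 13460 tested genes. In edgeR, 4 had an unadjusted p under 0.05, a smaller share than the 16.7% of all tested genes. These 4, named after their values were seen, were the Nanos-family gene nos-3 (0.19), the cohesin loader gene scc-2 (0.15), the small-RNA gene mut-16 (0.10) and the chromosomal passenger gene bir-1 (-0.28). The highest library was vitamin D library 5 for 64 of the 88, or 72.7%, but for 4 of the 9 eggshell genes (44.4%). The median log2 deviation of these 9 was 0.21 in vitamin D library 5 and -0.14 to -0.04 in the other vitamin D libraries. In vehicle libraries 2 and 3 it was 0.09 and 0.04, above the -0.06 to 0.03 of the other vehicle libraries, unlike the 4 eggshell members. The 19 tested oocyte and early embryo genes outside the members had a median log2 fold change of -0.03, the 17 germ granule and small-RNA genes 0.03, the 28 meiotic chromosome genes -0.03, the 15 cell cycle genes -0.16 and the 9 eggshell genes -0.03. The widest median range over libraries among these lists was 1.14 on the log2 scale, for the eggshell genes, against 2.51 for the 4 eggshell members. For the oocyte and early embryo genes it was 1.03, against 2.46 for the 9 oocyte RNA-binding members and 0.95 over all tested genes. By these medians the 2 member groups spread more widely than the other genes listed for the same roles. Single genes of those lists still reached 3.36 (eggshell) and 2.58 (oocyte and early embryo). A wide spread was not particular to these members, since the sperm markers had a median range of 3.18.

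The members were not spread evenly over the genome. Chromosome IV held 14 (35.9%) and chromosome I 12 (30.8%), against 19.7% and 18.2% of tested genes. The X chromosome held 2 (5.13%), meg-1 and meg-2, against 16.4% of tested genes. No test was made of these shares, since the members are a chosen list.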

How the data were processed

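The authors deposited raw read counts for 27928 genes in 12 libraries, and CPM values that equalled count over library total to within 2.91e-11, which were used only for that check. Per the labels' protocols, libraries had a 200 bp insert and were read as pairs of 50 bp. The submitters' processing notes name edgeR 3.12.1, with aligner, counter, strand use and genome build not given in the sources used here. Rows were matched by sequence name to WBcel235 (27187 to 1 gene, 3 to several, 738 to none), and all coordinates and exon lengths come from that assembly. Of 2800 chromosome III rows, 0 held a count.

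Counts were tested with edgeR 4.0.16 in R 4.3.3: filterByExpr (minimum count 10, minimum total 15), TMM factors, treatment as the only term, and robust quasi-likelihood, two-sided. The printed CPM include TMM scaling. Log2 deviations use a prior count of 2. Standard errors were computed as the size of the log2 fold change over the square root of the test's F statistic. Intervals (95%) come from these standard errors and the fit's degrees of freedom. Alternatives used total counts, DESeq2 1.42.0, other filters, a replicate block, a length trend (spline of 4 degrees of freedom), a sperm covariate and left-out libraries. The script was tested on simulated data. Between any pair of libraries in a group, chi-square over its degrees of freedom was at least 7.69, more than counting noise gives.

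The members, gene lists and alternatives were chosen with earlier results of these data known. Values in every library are given, per role, for the member with the highest level per exon length, the largest log2 fold change in size and the largest SD over libraries, and for others chosen after their values were seen. Same-numbered libraries were not treated as pairs in the main fit (correlations of -0.42 to 0.44 between their deviations).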

Additional observations from a re-analysis of the deposited data

Results flagged for a closer look

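In the 6 vitamin D libraries, library 5 lay far above the nearest other library for 30 of the 39 members, and library 3 far below for fbf-2. The measure is the gap to the nearest library divided by the whole range of the group in CPM, set against Dixon's 95% critical value for 6 libraries. Among all tested genes, library 5 lay that far above the rest in 9.83%. In the vehicle group 0 members passed this limit, where 2.28% of tested genes did. A gap to the nearest library stays small where vehicle libraries 2 and 3 are low together. Chance puts about 1 in 20 independent groups past it, and 78 groups were examined. These groups are not independent, since all members were read in the same 12 libraries. Among all tested genes, some vitamin D library lay that far from the rest in 13.9%.

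For the oocyte RNA-binding genes the gap was 0.914 of the range for oma-1, 0.954 for oma-2, 0.923 for puf-5, 0.945 for puf-11, 0.921 for mex-1, 0.924 for mex-3, 0.914 for pos-1, 0.949 for spn-4 and 0.777 for lin-41. For the germline RNA regulators it was 0.870 for gld-1, 0.644 for gld-2 and 0.894 for daz-1, and 0.652, on the low side in library 3, for fbf-2. For germ granule genes it was 0.912 for glh-2, 0.756 for pgl-1, 0.729 for pgl-3, 0.976 for meg-1, 0.885 for meg-2 and 0.927 for car-1. For meiotic chromosome genes it was 0.679 for htp-2, 0.888 for syp-2, 0.732 for syp-3, 0.813 for syp-4, 0.886 for zim-1 and 0.752 for him-8. For the cell cycle genes it was 0.869 for cyb-1 and 0.721 for cye-1, and for the eggshell genes 0.906 for chs-1, 0.956 for cbd-1, 0.765 for perm-2 and 0.6251 for perm-4, just past the limit.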

How the results depend on the processing

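The count of 0 members past the threshold held with total counts, DESeq2's size factors and test, both other low-value filters, the replicate block, the length trend removed, the sperm covariate, and each of the 12 fits that left out 1 library. It was 2 without vehicle libraries 2 and 3, and 30 without these and vitamin D library 5, both chosen after seeing the data and by the levels of these genes. The median log2 fold change of the members ran from -0.22 (without vitamin D library 5) to -0.03 (without vehicle library 4) over fits that left out 1 library, and was -0.02 with total counts, -0.17 with the length trend removed and 0.0076 with the sperm covariate.

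Many members changed sign between fits while short of the threshold. With total counts, fbf-1 was at 0.016, pgl-3 0.019, htp-2 0.017, syp-4 0.052, him-8 0.011 and cye-1 0.045. With at least 1 CPM in 6 libraries, gld-2 was at -0.0003. With the length trend removed, oma-2 was at -0.037, lin-41 -0.036, gld-2 -0.17, pgl-1 -0.087, htp-3 -0.039 and syp-1 -0.036. With the sperm covariate, puf-5 was at 0.039, mex-1 0.099, pos-1 0.0089, gld-1 0.0089, glh-2 0.033, pgl-3 0.0056, htp-2 0.020, syp-4 0.017, cye-1 0.070, mbk-2 0.0076 and chs-1 0.019. Without vehicle libraries 2 and 3, oma-2 was at -0.25, lin-41 -0.099, gld-2 -0.067, daz-1 -0.013, pgl-1 -0.10 and meg-1 -0.079. Without vitamin D library 5 as well, oma-2 was at -0.97, lin-41 -0.50, gld-2 -0.11, daz-1 -0.16, pgl-1 -0.20, meg-1 -2.26, meg-2 -0.41, htp-3 -0.017, syp-1 -0.053 and rec-8 -0.0044, and of these oma-2, lin-41, daz-1, pgl-1 and meg-1 passed. Leaving out 1 library gave -0.68 to 0.15 for oma-2, -0.27 to 0.22 for lin-41, -0.036 to 0.037 for gld-2, -0.018 to 0.17 for daz-1, -0.33 to 0.0075 for glh-2, -0.069 to 0.075 for pgl-1, -0.14 to 0.034 for pgl-3, -1.80 to 0.62 for meg-1, -0.29 to 0.53 for meg-2, -0.14 to 0.015 for htp-2, -0.10 to 0.033 for syp-4, -0.12 to 0.049 for cye-1 and -0.37 to 0.0006 for chs-1.

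Over all genes, 492 passed (236 higher, 256 lower), against 730 with total counts (507 higher, 223 lower), 1167 with DESeq2's test, 218 with the length trend removed (140 higher, 78 lower), 1646 with the sperm covariate, 3924 without vehicle libraries 2 and 3 and 5579 without these and vitamin D library 5. Leaving out 1 library gave 260 to 625. By the correlation of deviations from the group means, 2 of 6 vitamin D libraries matched best with the vehicle library of their own number. These were numbers 4 (0.30) and 5 (0.44). The deviations also hold the differences of the libraries that stood apart, so this cannot exclude a batch shared by number. With the replicate number as a block, 136 genes passed (104 higher, 32 lower) and 0 members, whose median was -0.09, with oma-2 at -0.22 and meg-1 at -0.70. The causes were not tested. Spread between pools limits the oocyte and eggshell members, with standard errors up to 0.68 on the log2 scale, and meg-1, with 0.94.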
